A study of Mus musculus with 32 samples.

Results

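The response to irradiation that carbon ions and photons shared was measured in mouse tumours of the KPC36 line by bulk RNA sequencing. All 32 libraries of the series entered the comparison: the 16 with the treatment labels carbon_treated or photon_treated were set against the 16 labelled carbon_ctrl or photon_ctrl, with the arm (carbon or photon) as a block. The block removes the difference between the arms, so the irradiation coefficient is the average change from each arm's own controls. KPC36 is a cell line from the KPC family of mouse pancreatic cancer models, and its genotype, the host strain, the age of the mice and the radiation dose are not given in the labels. Each of the 4 groups holds 8 libraries: tumours treated with carbon ions, untreated tumours of the carbon arm, tumours treated with photons and untreated tumours of the photon arm. Tumours were taken on days 4 and 7 after treatment according to the series' design text, and the labels used here do not give the day of a library. Nothing in the labels says that libraries of a group come from separate mice, so the p-values measure the spread between these libraries, which may be technical in part.

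Ionising radiation breaks DNA, and the transcription factor p53 answers by switching on genes that stop the cell cycle, start cell death or restrain p53 itself. DNA or RNA that reaches the cytosol of irradiated cells can be sensed as foreign and lead to the release of type I interferon, which acts on neighbouring cells through its receptor. The transcription factors it activates bind the interferon-stimulated response element in the promoters of antiviral genes, while interferon-gamma from lymphocytes induces guanylate-binding proteins, immunity-related GTPases and the chemokines that attract T cells. In pancreatic tumours these responses take place in a mixture of carcinoma cells, fibroblasts, vessels and leukocytes.

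Of 55103 genes in the deposited table, 20474 had enough counts to be tested. A gene is called when its Benjamini-Hochberg adjusted p, computed over all 20474 genes with edgeR's quasi-likelihood test, is under 0.05. At this threshold 98 genes (0.479% of those tested) were called: 56 (0.274%) were higher after irradiation and 42 (0.205%) were lower. Without adjustment, 2699 genes had a p under 0.05, 1225 of them higher and 1474 lower. The called higher genes include 10 interferon-stimulated antiviral genes, 7 interferon-gamma-induced genes and 5 p53 targets, and the called lower genes include the integrin gene Itgae, the immunoglobulin gene Ighm and the MHC class II activator Ciita. The median log2 fold change was 0.93 over the called higher genes and -0.67 over the called lower genes, against 0.01 over all genes tested, and 34 of the 98 changed more than 2-fold.

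A sequence motif is shared by a part of the called higher genes. The windows below come from the RefSeq promoter table of assembly GRCm38.p6, the build that corresponds to mm10, and are written 5′ to 3′ on the strand of the gene. Capitals mark matches to the core of the interferon-stimulated response element, which is GAAA, any 2 bases and GAAA on either strand, and overlapping matches are run together. Cxcl10, Ifit1, Ifit3, Isg15, Tgtp1, Gbp2 and Bst2 are shown because they rose in irradiated tumours and hold the core. The window of Ifit3b, at chr19:34607729-34607852, has the same letters as that of Ifit3.
Cxcl10 (chr5:92349053-92349139, minus strand): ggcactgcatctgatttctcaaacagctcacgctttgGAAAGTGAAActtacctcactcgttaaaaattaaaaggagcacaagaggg
Ifit1 (chr19:34640745-34640853, plus strand): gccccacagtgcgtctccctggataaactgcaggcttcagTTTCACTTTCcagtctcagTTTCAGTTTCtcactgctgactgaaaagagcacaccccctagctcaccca
Ifit3 (chr19:34583333-34583456, plus strand): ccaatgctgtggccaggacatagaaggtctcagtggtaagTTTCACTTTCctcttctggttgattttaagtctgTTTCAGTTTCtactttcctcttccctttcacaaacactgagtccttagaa
Isg15 (chr4:156200835-156200936, minus strand): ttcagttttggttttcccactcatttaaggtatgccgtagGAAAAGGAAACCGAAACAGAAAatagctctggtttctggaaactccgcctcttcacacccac
Tgtp1 (chr11:48992274-48992363, minus strand): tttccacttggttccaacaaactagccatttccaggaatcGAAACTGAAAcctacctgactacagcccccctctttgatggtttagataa
Gbp2 (chr3:142620564-142620653, plus strand): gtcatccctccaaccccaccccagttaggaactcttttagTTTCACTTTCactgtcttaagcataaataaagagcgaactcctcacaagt
Bst2 (chr8:71537547-71537642, minus strand): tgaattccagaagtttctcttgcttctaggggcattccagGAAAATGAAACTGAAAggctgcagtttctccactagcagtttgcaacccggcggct

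Promoter entries, each of 300 bases from 250 before the start of transcription to 50 after it, matched 68 of the 98 called genes by symbol. The core occurred in 12 of 42 promoters of called higher genes (28.6%) and in 0 of 26 promoters of called lower genes. It occurred in 3.72% of the promoters of all genes tested and in 3.99% of the 27025 promoters in the table. The promoters with the core belonged to Ifit3b, Cxcl10, Ifit3, Ifit1, Isg15, Tgtp1, Bst2, Gbp3, Gbp2, Igtp, Ifi208, an interferon-inducible gene of the PYHIN family, and Vldlr, a lipoprotein receptor that is not known as an interferon gene. In Vldlr the match lies after the start of transcription, at bases 37 to 46, and in the other genes before it. A match is a description of the letters and does not show that a factor was bound.

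**Figure D1:**
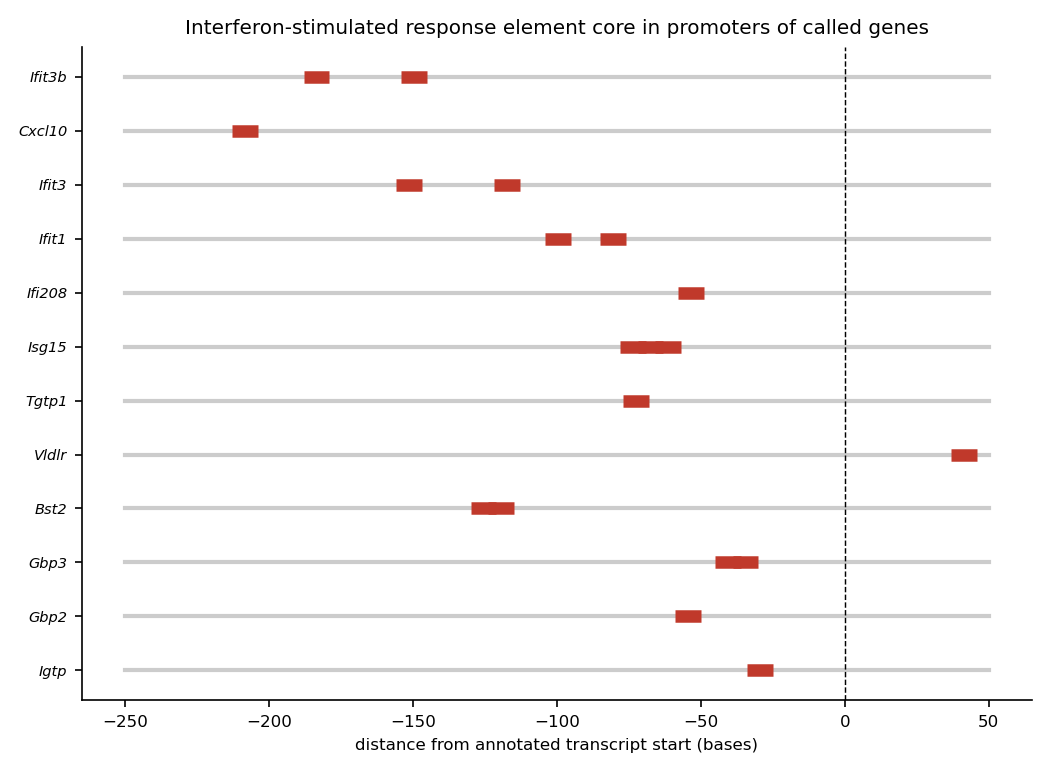
Position of the core of the interferon-stimulated response element (red bars, 10 bases each) in the 12 promoters of called higher genes that hold it, with the window in grey, the annotated start of transcription dashed and distance in bases on the x axis. Matches lie between 25 and 213 bases before the start in 11 promoters and after it in Vldlr.

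Cdkn1a, which encodes the cell cycle inhibitor p21, held a match to a p53 response element pattern in its promoter window. The pattern was a pair of RRRCWWGYYY sequences with other bases allowed between them. Here R is A or G, W is A or T and Y is C or T. Such a match was found in 0.0543% of the promoters of genes tested, and in 1 of the 20 p53 targets that have an entry. Sites that differ from the pattern were not counted. The Cdkn1a window, with both parts of the match and the bases between them in capitals, lies on the plus strand of the same build. The letters tgacatgttc after the capitals miss the pattern at their first base and are not marked.
Cdkn1a (chr17:29090866-29090977, plus strand): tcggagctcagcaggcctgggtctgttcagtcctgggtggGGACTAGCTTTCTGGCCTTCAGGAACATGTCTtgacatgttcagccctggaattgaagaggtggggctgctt

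Library totals ran from 13891863 to 71645903 estimated counts, and the median correlation of a library with the others of its group was between 0.962 and 0.979 on the log2 scale. Library titles begin with D in 4 carbon controls and 3 carbon-irradiated tumours and with M in all others, and the meaning of the letter is not stated. The numbers in the titles of photon controls run below those of photon-irradiated tumours without overlap. They do overlap with the numbers of the M titles in the carbon arm. What the numbers stand for is not stated, and whatever they follow cannot be told apart from photon treatment. Epithelial markers summed to between 3391 and 6586 CPM (counts scaled to a common library total) in every library, and pancreatic acinar markers to between 7.56 and 27.5 CPM. The labels name the cell type as malignant, while fibroblast and matrix genes reached 10070 to 39180 CPM, so the libraries hold stroma as well. Markers of muscle and fat varied widely. The summed CPM of 19 skeletal muscle genes had medians of 806.8 in carbon controls, 862.9 in carbon-irradiated, 1954 in photon controls and 70.79 in photon-irradiated libraries. For 10 adipocyte genes the medians were 41.42, 32.65, 57.75 and 13.74 CPM in the same order. The ranges overlapped in each arm, and carbon control 5 stood at 551.6 CPM, with 114.7 CPM in the next carbon control. In bulk tissue fewer cells of a type and less RNA per cell cannot be told apart.

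Both beams moved the called genes to the same side. The 2 effects share no library, and the sign of the change was the same for carbon ions and for photons in 98 of the 98 called genes. An unadjusted p under 0.05 was reached in both beams by 81 of them, in photons alone by 15 and in carbon ions alone by 2. Over all genes tested, 5.75% had such a p for carbon ions and 21.5% for photons, 299 genes had it in both, and 187 of these changed in the same direction (15.9% of the carbon genes and 4.24% of the photon genes). Since the pooled test uses both arms, the agreement in sign among its calls is partly fixed by the choice and is given as a description. The fitted change was larger for carbon ions than for photons in 22 of the 56 higher genes and in 4 of the 42 lower genes, a difference that was not tested over the genes.

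A test of the difference between the beams called 16 genes (0.0781% of those tested), and 2 of them were among the 98. With upper-quartile scaling it called 94. The predicted gene Gm49980 changed by -2.25 (SE 0.25) on the log2 scale with photons and by -0.17 (SE 0.24) with carbon ions. Arhgef28, a guanine nucleotide exchange factor of small GTPases, changed by 0.69 (SE 0.08) with photons and by 0.02 (SE 0.08) with carbon ions. For these 2 genes the pooled value is an average of unlike effects and does not describe a shared response. Taken alone in edgeR's test, carbon ions gave 0 calls (0%), with 1177 genes at an unadjusted p under 0.05. Photons alone gave 781 calls (3.81%), which include 65 of the 98, so 33 genes were called only when both arms were used. No called gene therefore has a carbon effect that passes adjustment by itself.

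**Figure D2:**
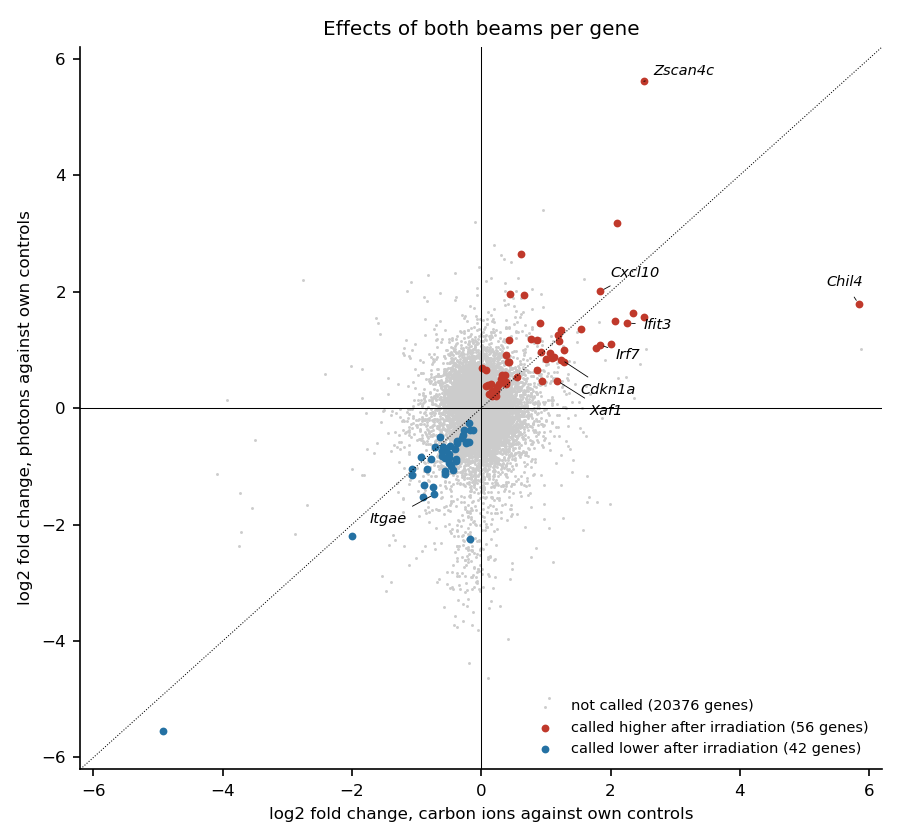
Log2 fold change of each tested gene after carbon ions (x axis) and after photons (y axis), each against the controls of its own arm, with the 56 called higher genes in red, the 42 called lower genes in blue, the 20376 genes not called in grey (2 outside the axes) and a dotted line of equal change. The called genes lie in the quadrants of equal sign, and the value of Zscan4c for photons rests on controls at or near 0.

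Of 45 tested interferon-stimulated antiviral genes, 10 rose (Usp18, Ifit3b, Ifit3, Isg15, Bst2, Ifit1, Xaf1, Rtp4, Mx2 and Ifi44), none fell, and 42 had a positive log2 fold change. The list had a median of 0.44, with 0.57 for carbon ions and 0.21 for photons, against 0.01 over all genes tested. The members that rose are 22.2% of the list, where 0.274% of all genes were called higher. DESeq2 called 18 members higher and 1 lower, and limma 19 and 1. In the M-titled libraries alone 4 were called higher, and the adjusted p of Isg15 (0.0638), Bst2 (0.0521), Ifit1 (0.0585), Xaf1 (0.0612), Mx2 (0.0638), Rtp4 (0.0861) and Ifi44 (0.0785) missed the threshold there. Leaving out each library gave 7 to 15 members called higher.

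Ifit3, a member of the antiviral list, ranged from 1.17 to 4.84 CPM (median 2.43) in carbon controls and from 1.77 to 31.8 (median 9.78) in carbon-irradiated tumours. In the photon arm it ranged from 1.58 to 5.90 CPM (median 1.98) in controls and from 1.18 to 22.8 (median 6.64) after irradiation. The groups overlapped in both arms: 6 carbon-irradiated and 5 photon-irradiated tumours exceeded their highest control, while 2 photon-irradiated tumours lay below their lowest. The pooled log2 fold change was 1.86 (SE 0.36, adjusted p = 0.0134).
Its neighbour Ifit3b gave 1.99 (SE 0.38, adjusted p = 0.0128) and Ifit1 gave 1.78 (SE 0.37, adjusted p = 0.021). Ifit3 and Ifit3b are near-identical copies whose reads the counting may have divided between them, so their separate values are uncertain.

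Isg15, a ubiquitin-like protein that is attached to other proteins, ranged from 0.887 to 2.11 CPM (median 1.48) in carbon controls and from 1.91 to 14.2 (median 5.33) after carbon ions. In photon controls it ranged from 0.633 to 4.25 CPM (median 1.45), and in photon-irradiated tumours from 0.704 to 10.9 (median 3.26). Carbon-irradiated tumours exceeded the highest control in 7 of 8 cases and photon-irradiated tumours in 2 of 8. Its log2 fold change was 1.55 (SE 0.31, adjusted p = 0.0166). Usp18, the protease that removes Isg15 and restrains interferon receptor signalling, changed by 1.45 (SE 0.27, adjusted p = 0.00737). Bst2, also called tetherin, holds virus particles at the cell surface, and it changed by 1.0 (SE 0.20, adjusted p = 0.0182); its 8 carbon-irradiated libraries (11.1 to 27.7 CPM) all exceeded the carbon controls (6.33 to 10.8).

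The other antiviral members that rose had smaller changes or wider errors. Mx2, a gene of the dynamin-like GTPase family, changed by 1.28 (SE 0.28, adjusted p = 0.0322) and Ifi44 by 1.13 (SE 0.27, adjusted p = 0.0498). Rtp4 changed by 1.04 (SE 0.24, adjusted p = 0.0415) and Xaf1, which promotes apoptosis, by 0.82 (SE 0.18, adjusted p = 0.0259). With the muscle score in the model 7 members of the list were called, and Mx2 (adjusted p = 0.0612), Ifi44 (0.0911) and Rtp4 (0.0612) were not. With the fat score 8 were called, 1 of them a member not called with arm alone, and Mx2 (0.077), Ifi44 (0.0725) and Xaf1 (0.0572) were not. Rtp4 overlaps Masp1 on the other strand, and how the counting used strand is not given in the sources used here. In Xaf1 the carbon effect of 1.17 exceeded the photon effect of 0.47 with an unadjusted p of 0.0421 for the difference, which does not pass adjustment over all genes.

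Among 16 genes of interferon signalling and nucleic acid sensing, 1 rose, and 10 had a positive and 6 a negative log2 fold change. An unadjusted p under 0.05 was found in 9, of which 8 were higher and 1 was lower. DESeq2 and limma each called 3 higher, and in the M-titled libraries alone or with the muscle score 0 were called. The gene that rose was Irf7, the transcription factor that amplifies type I interferon production, with a log2 fold change of 1.46 (SE 0.33, adjusted p = 0.0347). Its highest level was 85.6 CPM in a carbon-irradiated tumour and 55.2 CPM in a photon-irradiated one, and its control medians were 7.03 and 7.84 CPM. Irf7 overlaps Phrf1 on the other strand. Stat2, a transcription factor that carries the type I interferon signal, gave 0.39 (SE 0.12, adjusted p = 0.12) and was not called.

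Of 16 interferon-gamma-induced GTPases and chemokines, 7 rose (Cxcl10, Tgtp1, Gbp2, Gbp3, Igtp, Ifi47 and Cxcl11), and 16 had a positive log2 fold change. Their median was 0.73, with 0.88 for carbon ions and 0.47 for photons. DESeq2 and limma each called 11, 5 were called with the muscle and 3 with the fat marker score in the model, and leaving out each library gave 4 to 10. Cxcl10 and Cxcl11 are ligands of the receptor CXCR3 of activated T cells, and the GTPases act against microbes inside cells.

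Cxcl10 had the second lowest adjusted p of all genes, shared with Ighm and Elovl6. It ranged from 1.03 to 3.21 CPM (median 1.98) in carbon controls and from 1.88 to 16.5 (median 6.27) in carbon-irradiated tumours. Across the photon arm it ranged from 0.897 to 2.38 CPM (median 1.24) in controls and from 1.13 to 15.8 (median 3.12) in irradiated tumours. In each arm 6 of 8 irradiated tumours exceeded the highest control, and the remaining 2 lay among the controls. The log2 fold change was 1.92 (SE 0.31, adjusted p = 0.00512), at 1.84 for carbon ions and 2.0 for photons. Cxcl11, at under 1.4 CPM in every library, changed by 1.16 (SE 0.27, adjusted p = 0.0415). Both chemokine genes overlap Art3 on the other strand. The GENCODE annotation types Cxcl11 and Mx2 as polymorphic pseudogenes, intact in some mouse strains only, and the host strain is not given.

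Tgtp1 ranged from 1.34 to 2.81 CPM (median 2.22) in carbon controls and from 3.13 to 8.0 (median 5.29) in carbon-irradiated tumours, so these groups did not overlap. In the photon arm the controls ranged from 1.21 to 3.29 CPM (median 1.53) and the irradiated tumours from 1.03 to 9.89 (median 3.37), which overlap. Across all genes tested, 6 had no overlap between the carbon groups and 97 had none between the photon groups. Tgtp1 changed by 1.22 (SE 0.22, adjusted p = 0.00689). It lies beside a near-identical copy, Tgtp2, and overlaps Gm12185, so its counts may hold reads of others. Gbp2 changed by 0.75 (SE 0.15, adjusted p = 0.0134) and Gbp3 by 0.97 (SE 0.20, adjusted p = 0.0182). Igtp changed by 0.70 (SE 0.16, adjusted p = 0.0415) and Ifi47 by 0.40 (SE 0.09, adjusted p = 0.0404), and both overlap another gene on the same strand, Irgm2 and Olfr56. With the muscle score Igtp (adjusted p = 0.0672) and Cxcl11 (0.0569) were not called, and with the fat score Igtp (0.0624), Ifi47 (0.0535), Gbp3 (0.0611) and Cxcl11 (0.173) were not.

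The core described above was found in 15 of the 36 antiviral genes with a promoter entry (41.7%) and in 10 of the 12 interferon-gamma genes with one (83.3%). In the MHC class I list, whose members are also interferon targets, 0 of 16 genes were called, with 1 at an unadjusted p under 0.05 and 0 by DESeq2 or limma. Its median was 0.32 for carbon ions and -0.23 for photons.

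**Figure D3:**
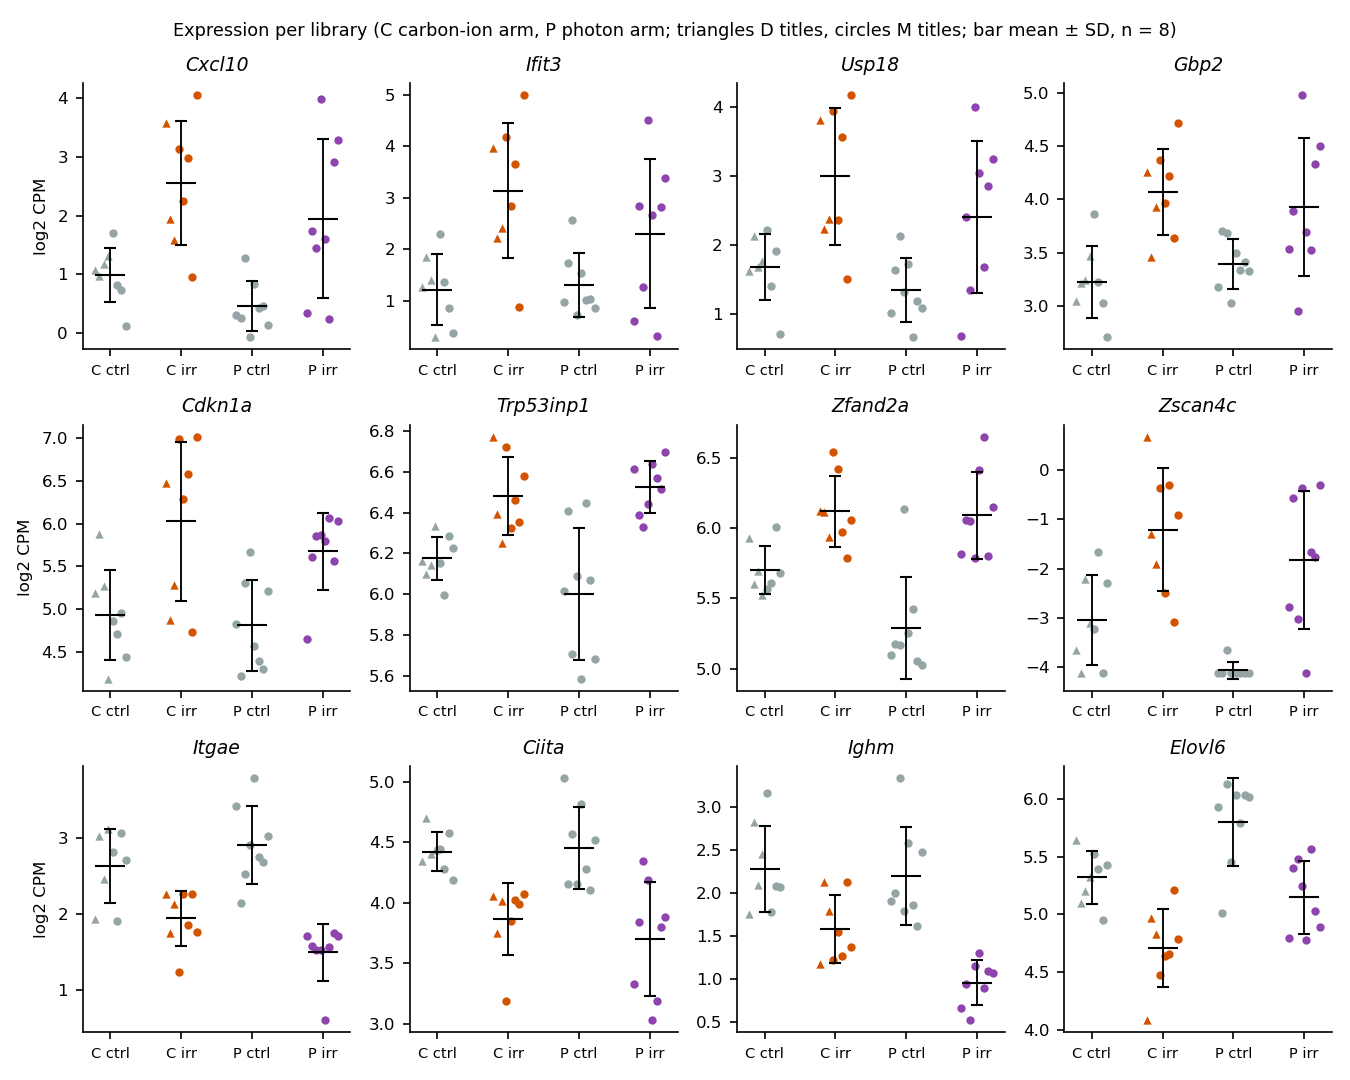
Log2 CPM of 12 called genes in each library of the 4 groups (C, carbon arm and P, photon arm, with ctrl for controls and irr for irradiated), with triangles for D titles, circles for M titles and bars for the mean ± SD of 8 libraries. The irradiated libraries spread more widely than the controls for Cxcl10, Ifit3 and Usp18, and some of them lie among the controls.

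Irradiated tumours had more RNA of 5 p53 targets. Of 26 tested, Trp53inp1, Cdkn1a, Gdf15, Pmaip1 and Mdm2 rose (19.2%), none fell, and 25 had a positive log2 fold change. The list's median was 0.16, with 0.13 for carbon ions and 0.11 for photons. Cdkn1a and Gdf15 changed the most of the 5 and Mdm2 the least. With the muscle or the fat marker score in the model 2 were called, Cdkn1a and Trp53inp1. Without the arm block 3 were called, and leaving out each library gave 2 to 5.

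Cdkn1a ranged from 18.1 to 58.5 CPM (median 29.9) in carbon controls and from 26.6 to 129 (median 83.2) in carbon-irradiated tumours. Across the photon arm it ranged from 18.5 to 50.8 CPM (median 25.97) in controls and from 25.1 to 66.7 (median 56.5) after irradiation. The groups overlapped, with 5 of 8 irradiated tumours above the highest control in each arm. Its log2 fold change was 1.04 (SE 0.21, adjusted p = 0.0166). Within the carbon arm the difference of mean log2 CPM was 0.41 among D titles and 1.58 among M titles. Trp53inp1, a stress protein that promotes p53 activity, ranged in carbon controls from 63.9 to 80.6 CPM (median 71.4) and after carbon ions from 76.1 to 109 (median 86.02). In photon controls it ranged from 48.03 to 87.05 CPM (median 65.9), and after photons from 80.5 to 104 (median 93.1). The change was small beside that of Cdkn1a but tight: all 16 irradiated tumours lay above the median of their own controls, and the log2 fold change was 0.40 (SE 0.07, adjusted p = 0.00584).

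Gdf15, a secreted stress hormone, changed by 0.93 (SE 0.20, adjusted p = 0.0259) at levels of 0.333 to 4.31 CPM. Pmaip1, which encodes the pro-apoptotic protein Noxa, changed by 0.55 (SE 0.12, adjusted p = 0.036). Mdm2, the ubiquitin ligase that degrades p53, changed by 0.19 (SE 0.04, adjusted p = 0.0415), from a median of 51.8 to 57.1 CPM in the carbon arm and from 49.95 to 58.4 CPM in the photon arm. Other classical targets were not called. Ccng1 gave 0.31 (SE 0.10) for carbon ions and 0.01 (SE 0.10) for photons, with an adjusted p of 0.338 in the pooled test. Eda2r, a death receptor, gave 0.64 (SE 0.25) and -0.05 (SE 0.25), with an adjusted p of 0.511. Phlda3, an inhibitor of Akt, gave 0.12 (SE 0.11) and -0.02 (SE 0.11), with an adjusted p of 0.851.

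Ccng2, Btg1, Txnip and Cdh6, which are in no list used here and were picked from the calls, rose. Ccng2, a cyclin found in resting cells, ranged from 64.7 to 100.1 CPM (median 69.9) in carbon controls and from 72.2 to 139 (median 98.2) in carbon-irradiated tumours. In the photon arm it went from 57.1 to 96.97 CPM (median 66.4) in controls and from 74.9 to 126 (median 92.6) in irradiated tumours. It changed by 0.41 (SE 0.09, adjusted p = 0.0195), with all 16 irradiated tumours above the median of their controls. Btg1, an antiproliferative gene, changed by 0.26 (SE 0.06, adjusted p = 0.0498) and Txnip, an inhibitor of thioredoxin, by 0.35 (SE 0.08, adjusted p = 0.0488). Cdh6, a cadherin, changed by 0.47 (SE 0.10, adjusted p = 0.0335). None of these 4 was called with the muscle or the fat marker score in the model, where Ccng2 had an adjusted p of 0.0612 and 0.0725.

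In the mitosis list 0 of 24 genes were called by edgeR's test or by DESeq2 and 4 were called lower by limma. Of the members, 24 had a negative log2 fold change and 21 an unadjusted p under 0.05. The median was -0.37, with -0.16 for carbon ions and -0.58 for photons. Plk1, the polo-like kinase of mitotic entry, gave -0.49 (SE 0.15, adjusted p = 0.131), Ttk, a spindle checkpoint kinase, -0.50 (SE 0.16, adjusted p = 0.136) and Kif23, a kinesin of cell division, -0.37 (SE 0.11, adjusted p = 0.122). For Ttk the carbon value was -0.17 and the photon value -0.83, with an unadjusted p of 0.0317 for the difference.

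Zfand2a, Hspa1b and Dnajb6, 3 stress genes picked from the calls and not from a list, rose. Zfand2a, a stress-induced partner of the proteasome, ranged from 45.9 to 64.2 CPM (median 50.05) in carbon controls and from 55.2 to 93.2 (median 67.9) in carbon-irradiated tumours. Across the photon arm it ranged from 32.5 to 70.2 CPM (median 36.0) in controls, with 1 control far above the rest, and from 55.2 to 100.4 (median 66.3) in irradiated tumours. All 16 irradiated tumours lay above the median of their own controls, and the log2 fold change was 0.61 (SE 0.10, adjusted p = 0.00563). Hspa1b, an inducible heat shock protein of the Hsp70 family, changed by 0.65 (SE 0.14, adjusted p = 0.0259) and its co-chaperone Dnajb6 by 0.18 (SE 0.04, adjusted p = 0.0182). Hspa1b has a near-identical neighbour, Hspa1a, that can share its reads, and in the D-titled carbon libraries its difference was -0.11. With the muscle and the fat marker score the adjusted p was 0.0957 and 0.106 for Hspa1b and 0.0612 and 0.0725 for Dnajb6, while Zfand2a was called with either. Without the arm block Hspa1b had an adjusted p of 0.138.

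Zscan4c and Zscan4f, near-identical genes that mark a short-lived state of embryonic stem cells and very early embryos, were detected mainly in irradiated tumours. Zscan4c ranged from 0 to 0.26 CPM (median 0.055) in carbon controls and from 0.0611 to 1.54 (median 0.414) after carbon ions. In photon controls it was at 0 in all but 1 library, which had 0.0227 CPM, and photon-irradiated tumours ranged from 0 to 0.75 CPM (median 0.248). Of the photon-irradiated tumours, 7 exceeded every photon control, and of the carbon-irradiated tumours 5 exceeded every carbon control. The pooled test gave an adjusted p of 0.00563 for Zscan4c and of 0.0182 for Zscan4f. No control exceeded 0.26 CPM for Zscan4c or 0.27 CPM for Zscan4f, so both passed the count filter through irradiated libraries alone. These p-values are thus partly fixed by the filter and are given as a description. The fitted log2 fold changes, 3.31 (SE 0.57) and 2.52 (SE 0.51), depend on the prior count at such levels, and reads of copies in the family can be exchanged. Chil4, a chitinase-like protein with a close relative in Chil3, reached 135 CPM in 1 carbon-irradiated tumour, where carbon controls ranged from 0 to 1.58 CPM. Its photon value of 1.79 (SE 1.18) had an unadjusted p of 0.138, while the pooled test called it with an adjusted p of 0.0404.

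Of 11 dendritic markers, 2 fell in edgeR's test (Itgae and Zbtb46; 18.2%), none rose, and 7 had an unadjusted p under 0.05, each lower. DESeq2 called 4 lower and limma 5, leaving out each library gave 2 to 4, and 1 was called with either marker score in the model. The median was -0.44, with -0.24 for carbon ions and -0.69 for photons. The summed level of the 11 markers did not follow: its medians were 278.1 CPM in carbon controls, 254.5 in carbon-irradiated, 264 in photon controls and 267.5 in photon-irradiated libraries. Itgae had the smallest adjusted p of all 20474 genes.

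Itgae encodes CD103, the integrin subunit of intraepithelial lymphocytes and of dendritic cells that present tumour antigen to CD8 T cells. It ranged from 3.69 to 8.63 CPM (median 6.74) in carbon controls and from 2.30 to 4.75 (median 3.93) in carbon-irradiated tumours. In the photon arm it ranged from 4.35 to 13.8 CPM (median 7.07) in controls and from 1.45 to 3.29 (median 2.91) in irradiated tumours, with no overlap. All 16 irradiated tumours lay below the median of their own controls. The pooled log2 fold change was -1.10 (SE 0.17, adjusted p = 0.00287), at -0.73 for carbon ions and -1.48 for photons, with an unadjusted p of 0.0181 for the difference. Itgae overlaps Haspin on the other strand. Zbtb46, the transcription factor that marks classical dendritic cells, changed by -0.40 (SE 0.08, adjusted p = 0.0221). With the muscle score in the model its adjusted p was 0.0509 and with the fat score 0.0891. Xcr1, the chemokine receptor of the same cross-presenting cells, gave -1.09 (SE 0.28, adjusted p = 0.0655) at under 1.9 CPM and was not called.

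Other called lower genes with known roles in these or related cells were picked from the calls. Btla, an inhibitory receptor of lymphocytes and dendritic cells, ranged from 0.908 to 2.54 CPM (median 2.04) in carbon controls and from 0.551 to 1.26 (median 1.08) after carbon ions. Photon controls ranged from 0.843 to 3.81 CPM (median 2.198) and irradiated tumours from 0.374 to 1.15 (median 1.11). All 16 irradiated tumours lay below the median of their controls, and the log2 fold change was -1.10 (SE 0.20, adjusted p = 0.00584). Mycl, the Myc family member that dendritic cells use, changed by -0.69 (SE 0.13, adjusted p = 0.0128). Kmo, an enzyme of the kynurenine pathway, changed by -0.84 (SE 0.20, adjusted p = 0.0415). Cbfa2t3, a transcriptional corepressor of blood cells, changed by -0.56 (SE 0.12, adjusted p = 0.0195).

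Of 8 genes of MHC class II presentation, 1 fell (Ciita, the transcriptional activator of the class II genes), 7 had an unadjusted p under 0.05, each lower, and 8 had a negative log2 fold change. DESeq2 called 3 lower, limma 6, and edgeR 5 without the 4 libraries far out on the leading principal component. Ciita ranged from 18.2 to 25.9 CPM (median 21.3) in carbon controls and from 9.08 to 16.8 (median 15.97) after carbon ions, with no overlap. In photon controls it ranged from 17.1 to 32.6 CPM (median 21.1), and in photon-irradiated tumours from 8.12 to 20.3 (median 14.1), of which 6 were below every control. Its log2 fold change was -0.63 (SE 0.11, adjusted p = 0.00584), and it overlaps Dexi on the other strand. The class II chains H2-Eb1 and H2-Aa gave -0.43 (SE 0.11, adjusted p = 0.0655) and -0.39 (SE 0.11, adjusted p = 0.0863) and were not called by edgeR. DESeq2 called both, with adjusted p of 0.0204 and 0.0369, as did limma, with 0.0124 for each. For H2-Aa the carbon value of -0.18 and the photon value of -0.60 differed with an unadjusted p of 0.0402.

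Of 6 B and plasma cell genes, 1 fell (16.7%, against 0.205% of all genes tested). The log2 fold change was positive in 3 members and negative in 3, with a median of -0.04 (0.02 for carbon ions and -0.18 for photons). The 1 that fell, and the only member with an unadjusted p under 0.05, was Ighm, the heavy chain of immunoglobulin M. It ranged from 3.31 to 8.88 CPM (median 4.18) in carbon controls and from 2.19 to 4.30 (median 2.68) in carbon-irradiated tumours. In photon controls it ranged from 2.99 to 10.01 CPM (median 3.81), and in photon-irradiated tumours from 1.37 to 2.40 (median 1.95), with no overlap. Its log2 fold change was -1.04 (SE 0.17, adjusted p = 0.00512). Of 21 T cell genes, 0 were called by edgeR, DESeq2 or limma, 6 had an unadjusted p under 0.05, and the medians were 0.04 for carbon ions and -0.80 for photons. Cd8a, at under 1 CPM in every library, gave 0.84 (SE 0.26, adjusted p = 0.126), opposite in sign to 19 other members. Of 7 mast cell genes, 0 were called by edgeR or DESeq2 and 1 was called lower by limma, with a median of -0.84 and 5 at an unadjusted p under 0.05, among them Cpa3, a mast cell protease, at -1.22 (SE 0.37, adjusted p = 0.126).

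Several called lower genes are known from vessels and their supporting cells, although in the endothelial and pericyte lists 0 of 13 and 0 of 6 tested genes were called. This group was put together after the calls were seen. It includes Aplnr, the apelin receptor of endothelium, Gja4, a connexin of arteries, Gucy1b1, a subunit of the nitric oxide receptor, and Tal1, a transcription factor of blood and endothelial cells. Heg1 and Ptprb, which keep endothelial junctions, and S1pr2, a sphingosine phosphate receptor, fell as well, as did Cygb, the cytoglobin of pericytes and stellate cells.

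Aplnr ranged from 27.6 to 75.2 CPM (median 48.8) in carbon controls and from 12.7 to 78.6 (median 32.7) after carbon ions, which overlap. In photon controls it ranged from 49.95 to 97.5 CPM (median 69.6) and in photon-irradiated tumours from 24.0 to 49.3 (median 34.5), which do not. The log2 fold change was -0.82 (SE 0.17, adjusted p = 0.0206). Gucy1b1 changed by -0.75 (SE 0.15, adjusted p = 0.0182), Gja4 by -0.72 (SE 0.16, adjusted p = 0.0363) and Tal1 by -0.67 (SE 0.15, adjusted p = 0.0335). Tbx2, a transcription factor active in mesenchyme, changed by -0.57 (SE 0.12, adjusted p = 0.0182), and Cygb by -0.65 (SE 0.15, adjusted p = 0.0404). Heg1 changed by -0.39 (SE 0.09, adjusted p = 0.0415), Ptprb by -0.32 (SE 0.08, adjusted p = 0.047) and S1pr2 by -0.25 (SE 0.06, adjusted p = 0.0415).

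Of 20 genes in the fibroblast list, 18 had a negative log2 fold change and 6 an unadjusted p under 0.05, each lower. The median was -0.22, with -0.005 for carbon ions and -0.45 for photons. DESeq2 called 1 lower and limma 2. Without the arm block, with arm and title letter as block or in the M-titled libraries alone, 0 were called. Pdgfrb, the growth factor receptor of pericytes and fibroblasts, was the 1 gene of the list that fell in edgeR's test. It ranged from 93.0 to 152 CPM (median 134) in carbon controls and from 85.6 to 134 (median 96.4) after carbon ions. In the photon arm it ranged from 128 to 261 CPM (median 163) in controls and from 86.0 to 153 (median 128) in irradiated tumours. The groups overlapped in both arms, and the log2 fold change was -0.41 (SE 0.09, adjusted p = 0.0415). Zfp423, a transcription factor of fat and vessel precursors, changed by -0.72 (SE 0.17, adjusted p = 0.0424), Hic1, a transcriptional repressor, by -0.42 (SE 0.10, adjusted p = 0.0415) and Vangl2, a planar polarity protein, by -0.74 (SE 0.17, adjusted p = 0.036). Of the endothelial and pericyte lists, without a call by edgeR, 4 and 3 genes had an unadjusted p under 0.05. DESeq2 called 1 lower in each list, and limma 1 and 2. Tek, the angiopoietin receptor, gave -0.69 (SE 0.18, adjusted p = 0.0687), Notch3, the Notch receptor of mural cells, -0.58 (SE 0.16, adjusted p = 0.088), and Rgs5, a pericyte marker, -0.43 (SE 0.13, adjusted p = 0.122).

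In these vascular genes 1 photon control, number 3, stood above the rest of its group: it held the highest value of Heg1 (369 CPM), Ptprb (171 CPM), Cygb (66.3 CPM), Gucy1b1 (6.72 CPM), Tek (24.5 CPM) and Notch3 (86.9 CPM). Without this library the adjusted p was 0.0284 for Aplnr, 0.024 for Gucy1b1, 0.0468 for Heg1 and 0.0227 for Tbx2, and it was 0.0523 for Cygb, 0.056 for Gja4, 0.0553 for Tal1, 0.062 for S1pr2, 0.0716 for Pdgfrb, 0.0755 for Zfp423, 0.0554 for Vangl2, 0.0694 for Hic1 and 0.104 for Ptprb. With the fat marker score in the model as well as arm, the adjusted p was 0.0881 for Aplnr, 0.0725 for Gucy1b1, 0.117 for Gja4 and 0.17 for Pdgfrb. It was 0.162 for Tal1, 0.196 for Heg1, 0.208 for Ptprb, 0.176 for S1pr2, 0.16 for Cygb, 0.224 for Zfp423, 0.098 for Vangl2 and 0.174 for Hic1, and Tbx2 alone of these 13 genes was called, at 0.0176. With the muscle score Aplnr (0.0427), Gucy1b1 (0.0344), Heg1 (0.0307), Cygb (0.0174) and Tbx2 (0.0432) were called. Gja4 (0.0668), Tal1 (0.0637), Pdgfrb (0.052), Ptprb (0.0637), S1pr2 (0.0997), Hic1 (0.0948), Vangl2 (0.0612) and Zfp423 (0.0612) were not.

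Elovl6 and Fads2, 2 genes of fatty acid synthesis picked from the calls, fell. Elovl6, which lengthens fatty acids, ranged from 30.8 to 49.9 CPM (median 41.1) in carbon controls and from 16.9 to 37.01 (median 26.3) after carbon ions. Across the photon arm it ranged from 32.2 to 69.7 CPM (median 62.7) in controls and from 27.3 to 47.4 (median 35.3) in irradiated tumours. All 16 irradiated tumours lay below the median of their own controls, and the log2 fold change was -0.63 (SE 0.11, adjusted p = 0.00512), at -0.60 for carbon ions and -0.66 for photons. Fads2, a fatty acid desaturase, changed by -0.47 (SE 0.08, adjusted p = 0.00584). With the fat marker score in the model both were still called.

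All 16 cholesterol genes tested had a negative log2 fold change, and 12 had an unadjusted p under 0.05. Of them 1 was called lower (6.25%) by edgeR and by DESeq2 and 6 by limma, and leaving out each library gave 0 to 5. With the fat marker score in the model, without the arm block or in the M-titled libraries alone 0 were called, and with the muscle score 1 was. Dhcr7, the last enzyme of cholesterol synthesis, gave -0.23 (SE 0.07, adjusted p = 0.126) and was not called. On the other side Vldlr, a receptor of triglyceride-rich lipoproteins, rose by 1.0 (SE 0.24, adjusted p = 0.0424), with levels of up to 102.5 CPM after carbon ions where carbon controls reached 28.1 CPM.

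Adipocyte markers had the lowest median of the lists, -2.43, with 9 of 9 tested members negative and 8 at an unadjusted p under 0.05. By edgeR 0 were called, and DESeq2 called 1 and limma 0. Lpl, the lipase of fat and muscle, gave -1.13 (SE 0.31, adjusted p = 0.092), and -0.72 (adjusted p = 0.237) without carbon control 5, the library with the most fat marker RNA of its group. The carbon median of the list was -2.88, while the summed markers of the carbon groups had medians of 41.42 and 32.65 CPM. The skeletal muscle list had a median of -1.41, made up of -0.13 for carbon ions and -2.85 for photons, with 0 of 19 genes called by edgeR, DESeq2 or limma and 1 at an unadjusted p under 0.05.

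Hypoxia and glycolysis genes had a positive log2 fold change in 25 of 26 cases, with a median of 0.40 (0.47 for carbon ions and 0.37 for photons) and 19 at an unadjusted p under 0.05. None was called by edgeR, while DESeq2 called 2 higher and limma 1. Pgk1, a glycolytic enzyme, gave 0.52 (SE 0.15, adjusted p = 0.103), Bnip3, a mitophagy receptor, 1.02 (SE 0.30, adjusted p = 0.116) and Ero1a, an oxidase of the endoplasmic reticulum, 0.76 (SE 0.23, adjusted p = 0.122).

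**Figure D4:**
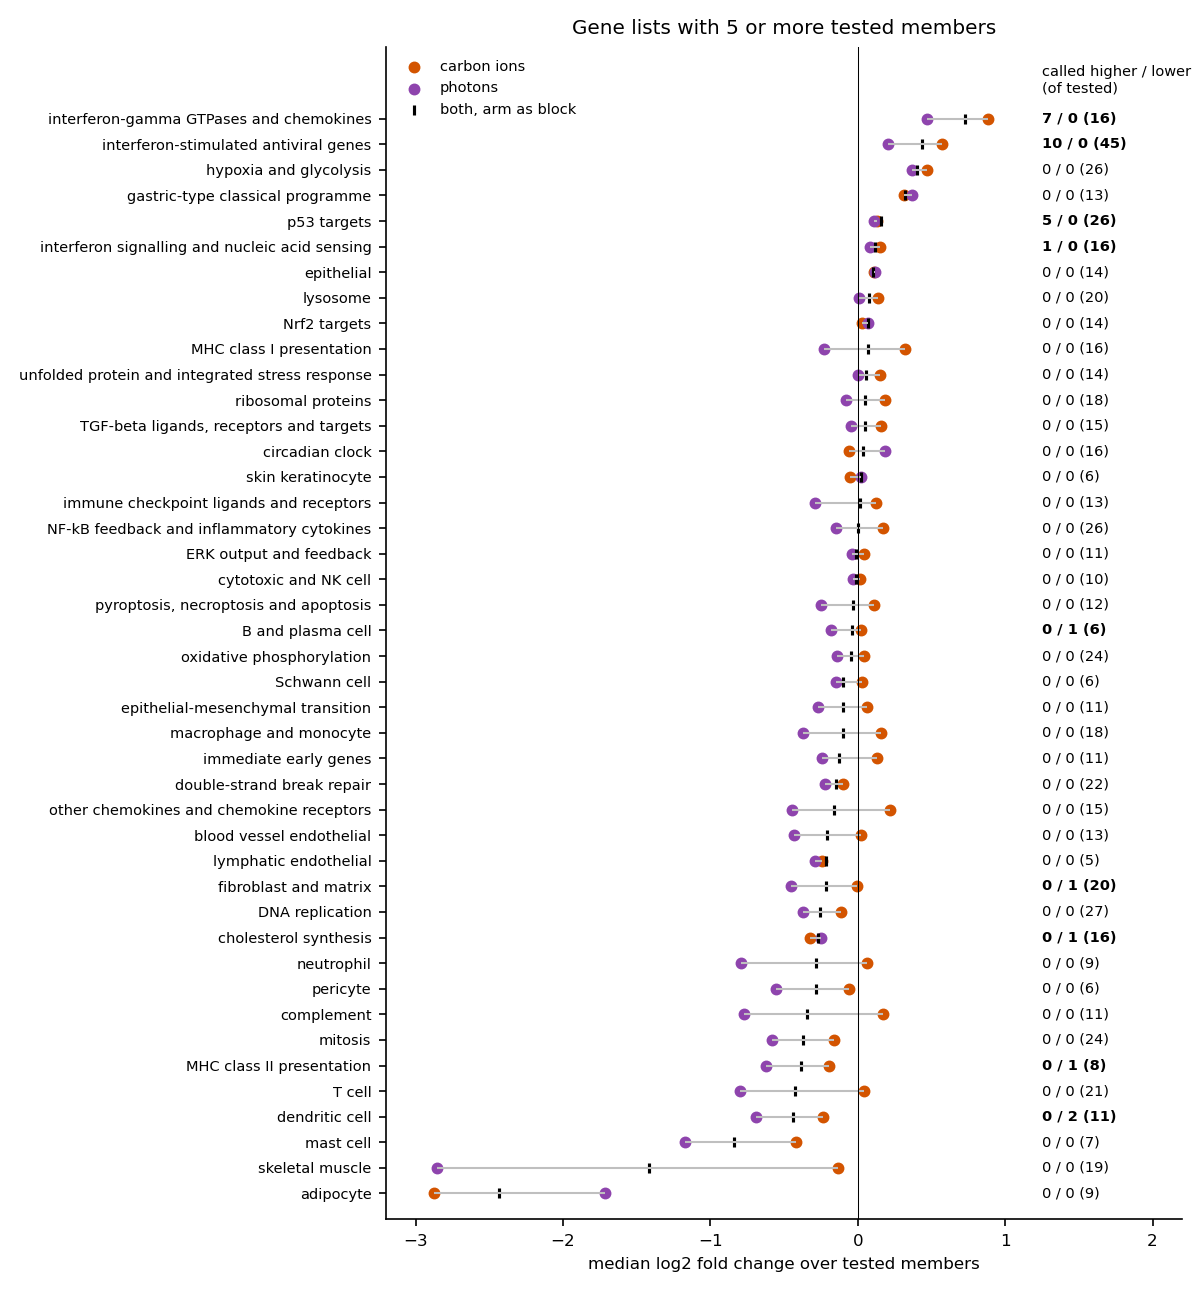
Median log2 fold change over the tested members of each gene list with 5 or more tested members, for carbon ions (orange), photons (purple) and both with arm as block (black bar), with the members called at the right. The interferon lists lie at the top with 7 and 10 called higher, and the fat and muscle lists at the bottom with 0 called.

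Each called gene was compared within the title letters of the carbon arm. The difference of mean log2 CPM kept the sign of the pooled effect in 97 of 98 genes among the D titles (3 irradiated against 4 controls), in 97 among the M titles of the carbon arm (5 against 4), and in 98 in the photon arm. The exceptions were Hspa1b among the D titles and Arhgef28 among the M titles, at -0.06. In 18 of the 98 genes all 16 irradiated libraries lay on the same side of the median of their own controls, and in 53 genes at least 15 did. The 98 genes were chosen by a test on these same libraries, so the agreement of sign is largely fixed by that choice and supports nothing further. No gene among the 20474 had separate groups in both arms.

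The number of called genes depended on the model. DESeq2 called 338 genes and limma 661, and each list held 97 of the 98. With the muscle marker score added to the model 38 genes were called, 37 of them among the 98, and with the fat marker score 34, of which 31 were. Kmo, Vldlr and Chil4 were not called with either score, nor was Cbfa2t3 with the fat score. The number also depended on single libraries. When each library was left out in turn it ranged from 38 to 257. It moved by more than 1.5 times from 98 without carbon controls 5 (52) and 6 (53), without carbon-irradiated libraries 1 (48), 3 (257), 4 (50) and 8 (202), without photon controls 1 (47), 2 (149), 5 (47), 6 (64), 7 (62) and 8 (38), and without photon-irradiated libraries 2 (52), 7 (59) and 8 (46). In these 32 fits 33 of the 98 genes were called every time and 67 in at least 16. Those called every time include Cxcl10, Ifit1, Ifit3, Ifit3b, Isg15, Usp18, Bst2, Xaf1, Gbp2, Gbp3, Tgtp1, Cdkn1a, Trp53inp1, Ccng2 and Zfand2a among the higher genes, and Itgae, Btla, Ighm, Ciita, Zbtb46, Mycl, Cbfa2t3, Elovl6, Fads2, Aplnr, Gucy1b1 and Tbx2 among the lower genes. Others were called in fewer fits. Of the higher genes, Gdf15 was called in 31, Hspa1b and Dnajb6 in 30, Mx2 in 27, Irf7 in 25, Ifi47 in 22, Mdm2 in 20, Cdh6 and Chil4 in 18, Pmaip1 and Rtp4 in 16, Cxcl11 in 15, Igtp in 14, Vldlr in 12, Ifi44 and Txnip in 8 and Btg1 in 6. Zscan4c was called in the 29 fits in which it had enough counts to be tested. Whether it was tested depended on the irradiated libraries, so this count is no measure of stability. Of the lower genes, Tal1 was called in 24, Gja4 in 19, Cygb and Vangl2 in 18, Hic1 in 17, Heg1 and Kmo in 16, S1pr2 in 15, Pdgfrb and Zfp423 in 12, and Ptprb in 9. For Cdkn1a, Gdf15, Pmaip1 and Zfand2a the highest adjusted p of these fits came without carbon-irradiated library 4. Gm26444, a predicted gene, stood at 128 CPM in 1 carbon control against a group median of 0.145 CPM, and its adjusted p was 0.0425 with all libraries and 0.402 without that one.

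**Figure D5:**
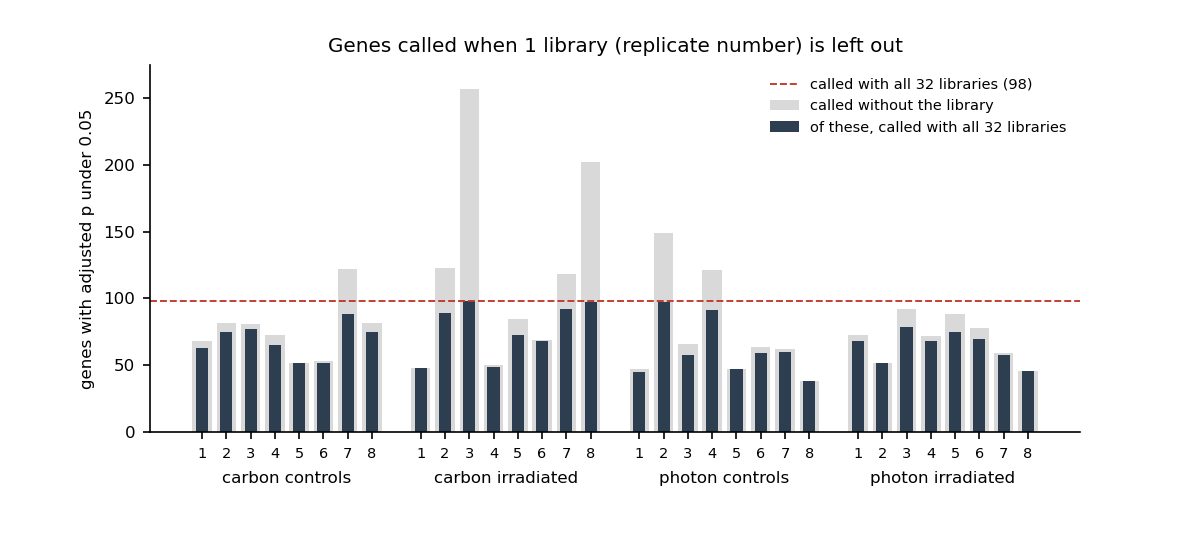
Number of genes with an adjusted p under 0.05 when the library named on the x axis is left out (grey bars), and how many of these were called with all 32 libraries (dark bars), with a dashed line at 98. The lowest bar is photon control 8 (38 genes) and the highest carbon-irradiated library 3 (257 genes).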

How the data were processed

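Bulk RNA-seq of 32 mouse tumours was analysed from the table of estimated counts per gene that the authors deposited. Per the labels' protocols, RNA with an integrity number above 7.0 went into stranded mRNA libraries. The submitters' processing notes name FastQC 0.12.0, Trimmomatic 0.32, RSEM 1.3.3 and build mm10; the annotation and the use of strand are not given in the sources used here. The estimated counts, which the authors deposited with fractions, were rounded, which changed library totals by at most 0.00403%. Totals were 13891863 to 71645903 counts; lower totals give wider errors for low genes.

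The tests were run with edgeR 4.0.16 under R 4.3.3. Low genes were removed with filterByExpr (minimum count 10), and the rest were normalised with TMM (trimmed mean of M values) and fitted by glmQLFit with arm and irradiation. A second fit with 4 group coefficients gave the carbon and photon effects and their difference. P-values were adjusted by Benjamini-Hochberg with a threshold of 0.05. Log2 CPM used a prior count of 2, and SE values were derived from the F statistic. Tested on simulated data over 20213 genes, the block fit recovered 50.7%, 76.1% and 97% of genes changed by 0.5, 1 and 2 on the log2 scale, with 7 false calls among 156. DESeq2 1.42.0, limma 3.58.1, other scalings, filters and blocks, and leaving out each library were alternatives.

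Named genes are, among called genes with a mean log2 CPM of at least 1, the same sign in both beams and at least 12 of 16 irradiated libraries beyond the control median, the 12 highest and 12 lowest by log2 fold change without predicted genes, together with Cdkn1a, Mdm2, Ccng1, Phlda3 and Eda2r, the leading members of 46 gene lists (673 tested genes), the 5 smallest p and called genes whose beam effects differ. Genes named outside this rule were chosen after their values were seen. The comparison, the lists and the rules were chosen with earlier results of these data known. Promoters came from RefSeq; the first 30 transcribed bases were found in GENCODE transcripts for 9 of 13 checked. Replicate numbers were given in accession order and do not link libraries across groups. Results for some genes are not reported here.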

Additional observations from a re-analysis of the deposited data

Results flagged for a closer look

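Single libraries stood apart from their group of 8 in 27 of 380 gene and group combinations, over 95 genes named in the text. Gaps and ranges were taken on the log2 CPM scale. A library is listed when its gap to the next library, as a share of the group's whole range, exceeds Dixon's critical value at the 95% level, which chance gives in about 1 of 20 groups. The values printed for single libraries are CPM.

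Photon control 3 was high in 7 genes of vessels or mural cells and in Zscan4c: Gucy1b1 at 6.72, Tek at 24.5, Notch3 at 86.9, Heg1 at 369, Ptprb at 171, Cyyr1 at 38.2, Cygb at 66.3 and Zscan4c at 0.0227. Carbon-irradiated library 3 was high in Notch3 at 46.6 and in Tal1, a transcription factor of endothelium, at 3.12. Carbon control 7 was low in Gja4 at 2.69, photon-irradiated library 5 was high in Rgs5 at 108, and carbon control 5 was high in Cyyr1 at 21.5. Whether these libraries hold more or fewer vessels was not tested.

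Photon-irradiated library 5 was low in the dendritic marker Itgae at 1.45, and carbon-irradiated library 4 was low in the MHC class II activator Ciita at 9.08 and in the kynurenine pathway gene Kmo at 0.875. Among the p53 targets, photon-irradiated library 1 was low in Cdkn1a at 25.1, and photon control 7 was low in Mdm2 at 44.7. Photon control 4 was high in the stress gene Zfand2a at 70.2 and in the hypoxia gene Ero1a at 193, and photon control 5 was high in Zscan4f at 0.254.

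In the fat and sterol genes, carbon control 5 was high in Lpl at 81.9 and in Pck1, the rate-limiting enzyme of gluconeogenesis that fat cells also express, at 14.4. Carbon-irradiated library 1 was low in Dhcr7 at 12.5. Carbon control 5 was low in the clock gene Clock at 132, photon-irradiated library 6 was low in Vangl2 at 5.15, and carbon-irradiated library 8 was high in Ttk at 11.7.

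For 2 of the 98 called genes the beam effects themselves differed in edgeR's test of the interaction. The carbon effect minus the photon effect was 2.08 on the log2 scale for Gm49980 (unadjusted p = 7.99e-07) and -0.678 for Arhgef28 (unadjusted p = 2.32e-06), with both arms on the same side of 0.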

How the results depend on the processing

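The 98 called genes (56 higher, 42 lower) kept their direction in every alternative in which they were tested, and 20 were called in all 15 alternatives other than leaving out 1 library. The number called was 338 with DESeq2 (195 higher, 143 lower), 661 with limma (279 and 382), 61 without the arm block (32 higher), 158 with 4 group coefficients (90 and 68) and 196 in the M-titled libraries alone (91 and 105). With arm and title letter as block 71 genes were called, 34 of them higher and the rest lower. Chosen after seeing the data, the muscle score as covariate gave 38 (17 and 21), the adipocyte score 34 (21 and 13), and leaving out carbon-irradiated libraries 2, 5 and 7 and photon-irradiated library 3, which lay far out on the leading principal component, gave 198 (74 of them lower). The difference of the beams called 94 genes with upper-quartile scaling, 4 without a filter and 1 in the M-titled libraries. Genes at an unadjusted p under 0.05 in both beams in the same direction numbered 356 without a filter. Leaving out each library gave 38 to 257 calls (18 to 138 lower), 5 to 108 genes for the difference of the beams and 122 to 292 genes shared by both beams. The log2 fold change of Pck1, not called at -3.09, became 0.55 with the adipocyte score, as that score was built from the list that holds it. The other causes were not tested. No paired analysis was possible because replicate numbers follow the order of deposition and name no shared animal or batch. Depth limits Zscan4c, Zscan4f, Cxcl11 and Cd8a, whose levels lie near or under 1 CPM.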

Other observations

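Further called genes belong to no list used here. Slc16a12, a monocarboxylate transporter, changed by -0.83 (SE 0.15, adjusted p = 0.00584), and all 16 irradiated libraries lay below the median of their own controls. Slco2b1, a transporter of organic anions, changed by -0.68 (SE 0.13, adjusted p = 0.0132) and Sncaip, which encodes synphilin, by -0.94 (SE 0.20, adjusted p = 0.0206). Ppp1r14a, an inhibitor of myosin phosphatase in smooth muscle, changed by -0.64 (SE 0.15, adjusted p = 0.0415) and Cyyr1 by -0.65 (SE 0.14, adjusted p = 0.0309). Srsf2, a splicing factor that overlaps Mettl23 and Mfsd11, changed by -0.23 (SE 0.05, adjusted p = 0.0404). Hip1r, a protein of clathrin coats, changed by 0.36 (SE 0.09, adjusted p = 0.047), with 0.08 for carbon ions and 0.65 for photons and an unadjusted p of 0.000401 for that difference.

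Lists without a called gene in edgeR's test still differed in how their members lay. Of 27 replication genes, 26 had a negative log2 fold change and 13 an unadjusted p under 0.05 (DESeq2 called 0 and limma 3), with Uhrf1, which maintains DNA methylation, at -0.48 (SE 0.14, adjusted p = 0.122) and Rrm1, a subunit of ribonucleotide reductase, at -0.32 (SE 0.10, adjusted p = 0.136). Of 22 genes of double-strand break repair, 20 were negative and 9 had an unadjusted p under 0.05 (DESeq2 called 1 and limma 2), with Rad54l, a recombination motor, at -0.41 (SE 0.11, adjusted p = 0.102). Of 13 genes of the gastric-type classical programme of pancreatic cancer, 12 were positive and 3 had an unadjusted p under 0.05, and DESeq2 and limma called 0. Of 9 neutrophil genes, 3 had an unadjusted p under 0.05, each lower, and DESeq2 and limma called 0; Cxcr2, the neutrophil chemokine receptor, gave -0.11 for carbon ions and -0.93 for photons, with an unadjusted p of 0.0079 for that difference. Hip1r, Srsf2 and Ppp1r14a were not called with the muscle or the fat marker score in the model, nor were Sncaip and Cyyr1 with the fat score.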
